A study of Saccharomyces cerevisiae with 16 samples.

Results

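The 50 genes described here encode ribosome biogenesis factors of the budding yeast Saccharomyces cerevisiae, the nucleolar and nuclear proteins that process pre-ribosomal RNA and assemble it with ribosomal proteins. They are taken by gene name and not by a measured value, although the set was drawn up with earlier results of these data known. All 50 had a probe among the 6388 gene probes of the array, of which 5326 carried a gene name. By role, 3 belong to the core of box C/D small nucleolar ribonucleoproteins (snoRNPs), 3 to the core of box H/ACA snoRNPs, 15 to small-subunit assembly, 23 to large-subunit assembly, and 6 act on both subunits or on pre-rRNA processing in general. In this set 9 are DEAD-box RNA helicases.

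Ribosome assembly starts on the nascent pre-rRNA, where snoRNPs guide methylation and pseudouridylation and the small-subunit processome folds and cleaves the transcript. Large-subunit precursors then mature through a succession of helicases, scaffold proteins and placeholders. In yeast the genes for these factors form a regulon that is transcribed by RNA polymerase II in growing cells and is repressed in many stresses, when general stress genes are induced.

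The study concerned FCP1, a phosphatase that acts on the RNA polymerase II tail, and CDK8 (SSN3), a kinase of the Mediator complex. On each of 16 spotted 2-colour arrays, amplified RNA of 1 strain was hybridised against a reference pool named refpool, whose genotype the labels do not give and whose RNA was isolated by another protocol. The 8 strains had 2 arrays each, one with the strain labelled by Cy3 (array a) and one with it labelled by Cy5 (array b). Whether a and b stand for 2 cultures is not stated, and p-values here cover the spread among arrays, which may be technical.

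One strain was fcp1-mut-tag-flag. The 4 truncations were fcp1-trunc-1:713-tag-flag, then fcp1-trunc-1:666-tag-flag, next fcp1-trunc-1:609-tag-flag, and the shortest, fcp1-trunc-1:594-tag-flag. The last 3 of these were also measured with +cdk8-del. They are called fcp1-mut, 1:713, 1:666, 1:609, 1:594 and, with the deletion, 1:666 cdk8-del, 1:609 cdk8-del and 1:594 cdk8-del below. Every strain carried a tagged FCP1 allele, no strain carried cdk8-del alone, and no agent is named in the labels of any array. The change carried by fcp1-mut and the number of clones per strain are not given in the sources used here.

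All 50 probes were above background in both channels on all 16 arrays, and none was saturated. Their median signal per array, with background subtracted, ranged from 600.7 to 2972 in the strain channel. For all gene spots the median signal without background subtraction was 291.7 to 1058. The deleted SSN3 was lower by a log2 difference of -1.30 ± 0.18 (SE, n = 2 arrays a strain) in 1:666, -1.53 ± 0.18 in 1:609 and -1.82 ± 0.18 in 1:594 (limma adjusted p 0.000597, 0.000489 and 0.000121). The FCP1 probe read -3.49 in 1:609 and -2.77 in 1:594 against the reference but -0.27 in 1:666. Strain markers other than the named alleles differed too, also from the reference. MET17 read between -4.92 and -4.51 against the reference in the strains without cdk8-del, and -4.64 in 1:609 cdk8-del. It read -0.05 and -0.44 where the deletion was combined with 1:666 and 1:594. Against the reference LYS2 was 3.40 in 1:609 and 2.73 in 1:594, and 2.98 and 3.07 when these also lacked CDK8. Comparisons with the reference therefore span these differences as well. LYS2 was 3.32 higher in 1:609 and 2.65 higher in 1:594 than in 1:713, and MET17 was 4.46 higher with cdk8-del in 1:666 and 4.10 higher in 1:594, but 0.28 in 1:609. The 4 alpha-specific genes had a median of -2.01 in 1:609 and -1.85 in 1:594 against 1:713. The part of these differences in the values of the ribosome biogenesis factors was not tested. It cannot be told apart from that of the named alleles where both differ.

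Values are log2 ratios of strain over reference after lowess scaling, which sets the typical gene to 0, so every change is relative to the typical gene. A gene is said to have changed, risen or fallen at a limma adjusted p under 0.05 (Benjamini-Hochberg over all 6388 probes), and to be called at an adjusted p under 0.01 with a fold above 1.7, the limits of the series description. The SE of a difference between strains ranged from 0.06 to 0.50 among the 50 genes, with a median of 0.15. The spread came in large part from the array letter. The median of the 50 genes was higher on array a than on array b in all 8 strains. In 22 genes a was above b in every strain and in 7 genes b was above a in every strain. The largest mean gaps were 0.78 in RRP8 and -0.46 in ENP1. With the letter as a block in the fit, the median SE of a difference was 0.07. Because the block moved many counts, both are given.

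**Figure D1:**
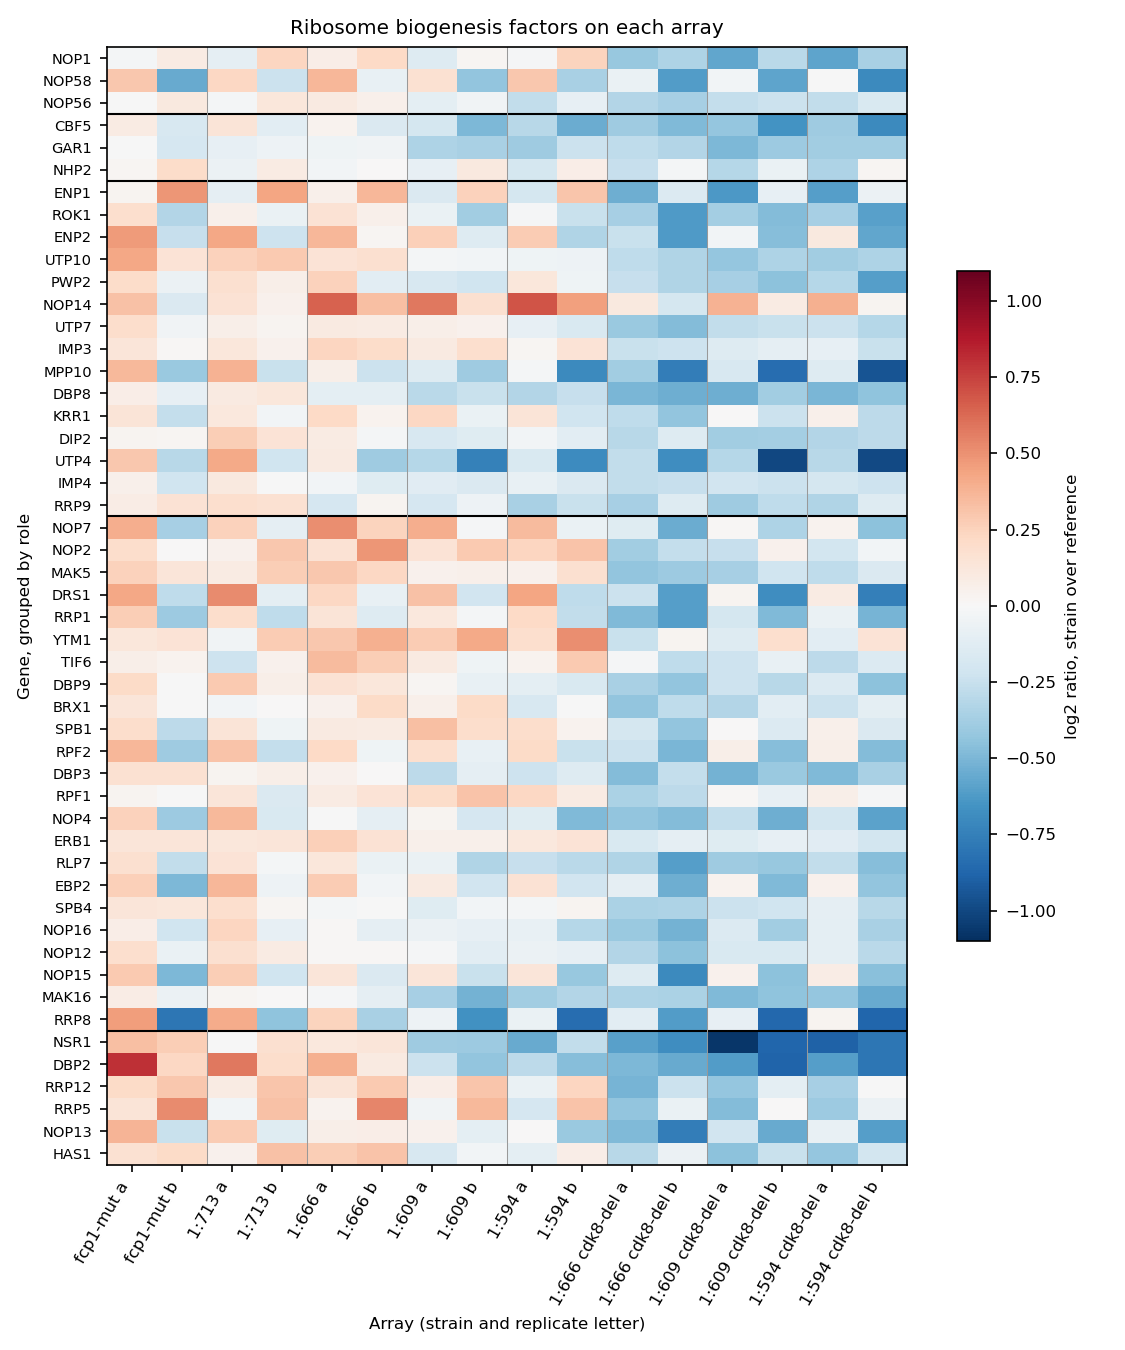
Log2 ratio of strain over reference for each of the 50 genes (rows, grouped by role and ordered within a role by the mean cdk8-del difference) on each of the 16 arrays (columns). The 6 cdk8-del arrays on the right have 39 to 49 genes below 0, against 3 to 35 on the other 10, and alternating columns in genes such as RRP8 and ENP1 show the gap between letters a and b.

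On the lowess scale the 50 genes stood close to the reference or slightly above it in fcp1-mut, 1:713 and 1:666, slightly below it in 1:609 and 1:594, and lowest in the cdk8-del strains. The median log2 ratio of the 50 genes was 0.06 in fcp1-mut, 0.08 in 1:713 and 0.09 in 1:666. It was -0.06 in both 1:609 and 1:594, and with median centring in place of lowess these 2 medians turned to 0.08 and 0.07. In the cdk8-del strains it was -0.36 in 1:666, -0.28 in 1:609 and -0.25 in 1:594. With scaling on the external control spots the order of the strains by median turned: the medians were -0.64 in fcp1-mut, -0.38 in 1:713, -0.47 in 1:666, -0.69 in 1:609 and -0.55 in 1:594, against -0.56, -0.49 and -0.64 in the double mutants of 1:666, 1:609 and 1:594. The medians of all probes moved as well, to -0.70, -0.46, -0.56, -0.63 and -0.48, against -0.21, -0.21 and -0.39. Relative to the typical gene the 50 genes kept 0.06, 0.08, 0.09, -0.06 and -0.06, against -0.36, -0.28 and -0.25, so that order did not turn. On the lowess scale each of the 50 genes had its lowest strain mean in a cdk8-del strain, 31 of them in 1:666 cdk8-del, 12 in 1:609 cdk8-del and 7 in 1:594 cdk8-del. The highest strain mean lay in 1:713 for 19 genes, in 1:666 for 16, in fcp1-mut for 9, in 1:609 for 5 and in 1:594 for 1. Shares of all probes are not given for these lowest and highest means. How far the counts depart from those of all probes therefore cannot be told.

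Against the reference, the single mutants gave few changes. In fcp1-mut UTP10 rose (1 gene, against 1.19% of all probes that rose), and 10 rose with the letter as a block (against 8.94%). In 1:713 none changed in limma (against 1.17% in either direction, with 6 at an unadjusted p under 0.05), and 11 changed with the block (against 9.78%). In 1:666, 4 genes rose (against 5.37%): ERB1, IMP3, MAK5 and TIF6. In 1:609, 2 rose (against 15.6%) and 7 fell (against 18.3%). In 1:594, 3 rose (against 14.9%) and 8 fell (against 15.6%). As shares of 50 the counts without the block are close to those of all probes, or below them for the rises in 1:609 and 1:594. The blocked counts of 10 in fcp1-mut and 11 in 1:713 are larger shares than those of all probes. With the letter as a block, 17 rose in 1:666 (against 20.7%), 10 rose and 16 fell in 1:609 (against 30.3% and 30.3%), and 6 rose and 18 fell in 1:594 (against 29.2% and 28.6%). UTP10 in fcp1-mut did not pass without array a of that strain, without any 1 array of 1:666, 1:609 or 1:666 cdk8-del, or with median centring, and the 4 changes in 1:666 were 0 without its array a and 1 without its array b. The count in 1:609 was 5 without either of its arrays, and that in 1:594 was 3 without array a and 5 without array b.

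The double mutants gave more falls against the reference on the lowess scale. In 1:666 cdk8-del 30 of 50 fell and none rose, against 12.9% of all probes that fell. In 1:609 cdk8-del 22 fell (against 17.0%), and in 1:594 cdk8-del 24 fell (against 17.2%). With the letter as a block the counts were 47 (against 26.8%), 43 (against 29.8%) and 45 (against 29.7%). With median centring they were 19, 7 and 7. With scaling on the external control spots they were 37, 35 and 49, and those of the single mutants were 49 in fcp1-mut, 30 in 1:713, 36 in 1:666, 46 in 1:609 and 43 in 1:594. On that scale the median of all probes itself lay between -0.70 in fcp1-mut and -0.21 in 1:666 cdk8-del. A fall there is therefore not relative to the typical gene. Shares of all probes are not given for these 2 alternatives. On the lowess scale 20 genes fell in all 3 double mutants, against 9.14% of all probes, and 19 fell in none. In 1:666 cdk8-del the count was 14 without array a and 13 without array b, in 1:609 cdk8-del 9 without a and 14 without b, and in 1:594 cdk8-del 11 without b.

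Few genes reached the fold of 1.7. NSR1 was called lower in 1:609 cdk8-del and in 1:594 cdk8-del, and it was the only one of the 50 called in any of the 18 comparisons. The share of all probes called was 0.235% in fcp1-mut, 0.172% in 1:713, 0.626% in 1:666, 3.12% in 1:609, 2.25% in 1:594, 3.91% in 1:666 cdk8-del, 3.73% in 1:609 cdk8-del and 4.57% in 1:594 cdk8-del. Against 1:713 it was 0.0470% for 1:666, 1.97% for 1:609 and 1.27% for 1:594. For cdk8-del it was 3.99% in 1:666, 1.63% in 1:609, 2.14% in 1:594 and 2.71% on average, and for the differences between these effects it was 0.0157%, 0.157% and 0.125%. DBP2 was also called for cdk8-del in 1:666 in the blocked fit.

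NSR1 (YGR159C), the yeast nucleolin homologue, binds pre-rRNA and serves small-subunit production. Its log2 ratio on arrays a and b was 0.33 and 0.27 in fcp1-mut, 0.00 and 0.18 in 1:713, and 0.11 and 0.13 in 1:666. It was -0.39 and -0.40 in 1:609 and -0.56 and -0.27 in 1:594. In the double mutants it was -0.60 and -0.68 in 1:666 cdk8-del, -1.07 and -0.88 in 1:609 cdk8-del, and -0.89 and -0.80 in 1:594 cdk8-del. All 10 arrays of 1:609, 1:594 and the double mutants lay below the 6 of the other strains, and the arrays of each double mutant lay below both arrays of its truncation. Against the reference NSR1 was -0.97 ± 0.07 (SE) in 1:609 cdk8-del (limma adjusted p 4.7e-06) and -0.84 ± 0.07 in 1:594 cdk8-del (adjusted p 1.02e-05). Both calls were lost with median centring, at -0.98 (adjusted p 0.0372) and -0.85 (adjusted p 0.0636).

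NSR1 was lower both with shorter FCP1 and with cdk8-del. Against 1:713 it was -0.48 ± 0.10 in 1:609 (limma adjusted p 0.00969) and -0.50 ± 0.10 in 1:594 (adjusted p 0.0107), but 0.03 ± 0.10 in 1:666. With cdk8-del it fell in all 3 truncations, by -0.76 ± 0.10 in 1:666, -0.58 ± 0.10 in 1:609 and -0.43 ± 0.10 in 1:594 (adjusted p 0.000552, 0.00675 and 0.0275).

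DBP2 (YNL112W), a DEAD-box helicase that acts in rRNA processing and in messenger RNA metabolism, followed a similar course. On arrays a and b it was 0.80 and 0.22 in fcp1-mut, 0.58 and 0.19 in 1:713, and 0.39 and 0.10 in 1:666. It was -0.24 and -0.43 in 1:609 and -0.29 and -0.47 in 1:594. With cdk8-del it was -0.49 and -0.55 in 1:666, -0.62 and -0.88 in 1:609, and -0.61 and -0.79 in 1:594. Array a was above array b in every strain, and within each letter every double mutant lay below its truncation. Against 1:713 the fall was -0.72 ± 0.19 in 1:609 and -0.76 ± 0.19 in 1:594 (limma adjusted p 0.027 in each), and with cdk8-del in 1:666 it was -0.77 ± 0.19 (adjusted p 0.021).

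**Figure D2:**
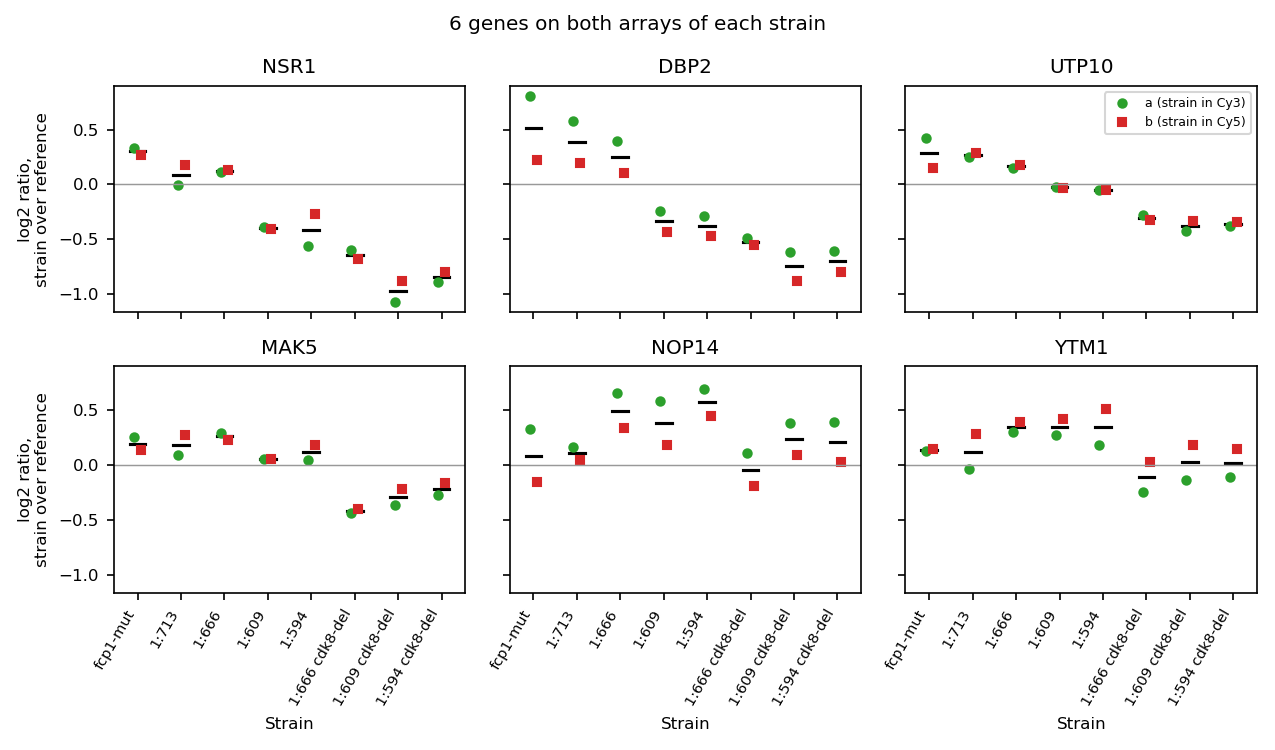
Log2 ratio of strain over reference for 6 genes on both arrays of each of the 8 strains; circles are array a, squares array b, and bars their mean. NSR1 and DBP2 step down from 1:666 to 1:609 and again with cdk8-del, while NOP14 and YTM1 stand above 0 in the 3 shorter truncations.

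The comparison of each shorter truncation with 1:713 asks how these genes stood with further loss of the FCP1 C-terminal region. LYS2 differed from 1:713 as well in 1:609 (3.32) and 1:594 (2.65), but read 0.05 in 1:666. In 1:609 and 1:594 allele length cannot be told apart from the other strain differences. In 1:666 none of the 50 changed (against 0.657% of all probes in either direction, with 5 changed and 11.4% of all probes with the letter as a block), with 4 at an unadjusted p under 0.05 in limma, and the median difference was 0.02. In 1:609, 7 fell (against 10.3%) and none rose (against 7.17%), and the median was -0.14. In 1:594, 7 fell (against 6.61%) and none rose (against 5.73%), and the median was -0.15. With the letter as a block 19 fell (against 23.9%) and 3 rose (against 21.0%) in 1:609, and 22 fell (against 21.4%) and 2 rose (against 19.7%) in 1:594. These comparisons share the 1:713 arrays. With median centring no gene fell in either 1:609 or 1:594, and 1 rose in 1:594, and with scaling on the external control spots 4 fell in 1:609 and 0 in 1:594. Relative to the typical gene the median of the 50 turned to 0.03 in 1:594 with median centring, and was -0.02 in 1:609.

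The genes that fell against 1:713 on the lowess scale, all of them lost with median centring, came from several steps of assembly. DBP2, NSR1, MAK16, DBP8, DIP2 and UTP10 fell in both 1:609 and 1:594. MAK16, a large-subunit factor, was -0.46 ± 0.08 in 1:609 and -0.37 ± 0.08 in 1:594. The small-subunit helicase DBP8 was -0.38 ± 0.07 and -0.40 ± 0.07, and the processome scaffold UTP10 was -0.29 ± 0.08 and -0.32 ± 0.08. GAR1, a core protein of H/ACA snoRNPs, fell in 1:609 by -0.28 ± 0.08, and RRP9, a U3 snoRNP protein, fell in 1:594 by -0.47 ± 0.11. The limma adjusted p of these 8 genes ranged from 0.003 in MAK16 to 0.037 in DIP2. Without either 1:713 array the count was 4 in 1:609 and 2 in 1:594. Without either 1:609 array it was 3 in 1:609, and in 1:594 it was 0 without array a of that strain and 2 without array b.

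Of the 3 H/ACA core proteins measured, CBF5 and GAR1 stood low in the 2 shortest truncations and NHP2 did not. CBF5, the pseudouridine synthase, was -0.20 and -0.49 on arrays a and b of 1:609 and -0.30 and -0.54 on those of 1:594, against 0.14 and -0.11 in 1:713. GAR1 was -0.34 and -0.36 in 1:609 and -0.39 and -0.23 in 1:594, against -0.09 and -0.05 in 1:713. For both genes the arrays of the 2 groups did not overlap with those of 1:713. In limma, however, CBF5 did not pass the test in 1:609 or 1:594, and GAR1 passed in 1:609 only. The share of all probes without such overlap is not given. NHP2 was -0.09 and 0.10 in 1:609 and -0.20 and 0.07 in 1:594, and these overlapped with -0.06 and 0.09 in 1:713. The C/D core proteins NOP1 (the methyltransferase fibrillarin), NOP56 and NOP58 had differences from 1:713 between -0.23 and 0.05 in 1:609 and 1:594, and none changed.

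A few genes stood higher in the truncations. NOP14, a component of the small-subunit processome, was 0.16 and 0.05 in 1:713, 0.65 and 0.33 in 1:666, 0.58 and 0.18 in 1:609, and 0.69 and 0.45 in 1:594. All 6 arrays of the shorter truncations lay above the 2 of 1:713. Against the reference it rose in 1:594 (0.57 ± 0.15, limma adjusted p 0.014). Its difference from 1:713 was 0.47 in 1:594 and changed only with the letter as a block (adjusted p 0.000345). YTM1, a partner of NOP7 and ERB1 in the PeBoW complex of large-subunit assembly, rose against the reference in 1:609 and in 1:594, by 0.35 ± 0.11 in each (limma adjusted p 0.036 and 0.040). TIF6, an anti-association factor of the large subunit, had the highest difference of 1:666 from 1:713, at 0.40 ± 0.12 (adjusted p 0.273).

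MPP10, IMP3 and IMP4 form 1 complex of the processome, and their values were unlike each other. Against 1:713 in 1:594, MPP10 was -0.43, IMP4 was -0.17 and IMP3 was 0.00, and none passed the test. In the fit with the letter as a block MPP10 (adjusted p 0.0164) and IMP4 (adjusted p 0.0466) passed and IMP3 did not (adjusted p 0.998). MPP10 on arrays a and b was 0.38 and -0.25 in 1:713 and -0.02 and -0.70 in 1:594, lower in 1:594 within each letter, and the gap between letters was wider than that between strains. UTP4 read -0.63 in 1:609 and -0.53 in 1:594 against 1:713 without passing the test, and passed it with the letter as a block (adjusted p 3.2e-05 and 0.000151).

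The comparison of each double mutant with its truncation asks how the genes stood with cdk8-del added to the truncation. MET17 differed as well in 1:666 (4.46) and 1:594 (4.10), but read 0.28 in 1:609. In 1:666 and 1:594 cdk8-del cannot be told apart from the other strain differences. Relative to the typical gene, the 50 genes stood lower with cdk8-del in each of the 3 backgrounds. The median difference was -0.45 in 1:666, where all 50 genes were below 0. It was -0.24 in 1:609, with 50 below 0, and -0.21 in 1:594, with 48 below 0. Over the 3 backgrounds the average difference had a median of -0.31 and ranged from -0.59 in NSR1 to -0.11 in RRP9. The 48 genes that were below 0 in all 3 backgrounds compare with 31.4% of all probes.

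Scaling on the external control spots in place of lowess raised the median of all probes by 0.35 in 1:666, 0.42 in 1:609, 0.10 in 1:594 and 0.29 on average. The median of the 50 genes relative to the typical gene was then -0.45, -0.24, -0.21 and -0.30, but the median difference itself was -0.10 in 1:666, turned to 0.18 in 1:609, and was -0.11 in 1:594 and -0.01 on average. On that scale 0 genes changed by limma in each background and 1 on average. The falls given here are therefore falls relative to the typical transcript.

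In tests, 24 genes fell with cdk8-del in 1:666 (against 5.81% of all probes), 4 fell in 1:609 (against 2.14%) and 5 fell in 1:594 (against 3.22%). On average over the backgrounds 27 fell (against 12.2%), and none rose in any of these comparisons. With the letter as a block 48 fell in 1:666 (against 18.2%), 31 in 1:609 (against 13.6%), 25 in 1:594 (against 15.7%) and 49 on average (against 27.3%), RRP8 being the exception. With median centring the counts were 8 in 1:666, 0 in 1:609, 0 in 1:594 and 24 on average. In 1:666 the count was 11 without either 1:666 array or without array a of the double mutant, and 14 without its array b. In 1:609 it was 0 without either 1:609 array or array a of the double mutant, 1 without its array b, and 2 without any 1 array of 1:666, 1:594 or 1:666 cdk8-del. In 1:594 it was 0 without array b of either strain, 2 without array a of either strain, and 3 without any 1 array of 1:609 or 1:666 cdk8-del.

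The differences held within each letter. On arrays a alone the median cdk8-del difference was -0.46 in 1:666, -0.24 in 1:609 and -0.15 in 1:594, and on arrays b alone it was -0.48, -0.25 and -0.24. In 1:666 all 50 genes were below 0 on either letter. In 1:609 it was 50 on a and 49 on b, and in 1:594 47 on a and 49 on b. In 46 genes all 6 within-letter differences were below 0, against 19.9% of all probes.

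**Figure D3:**
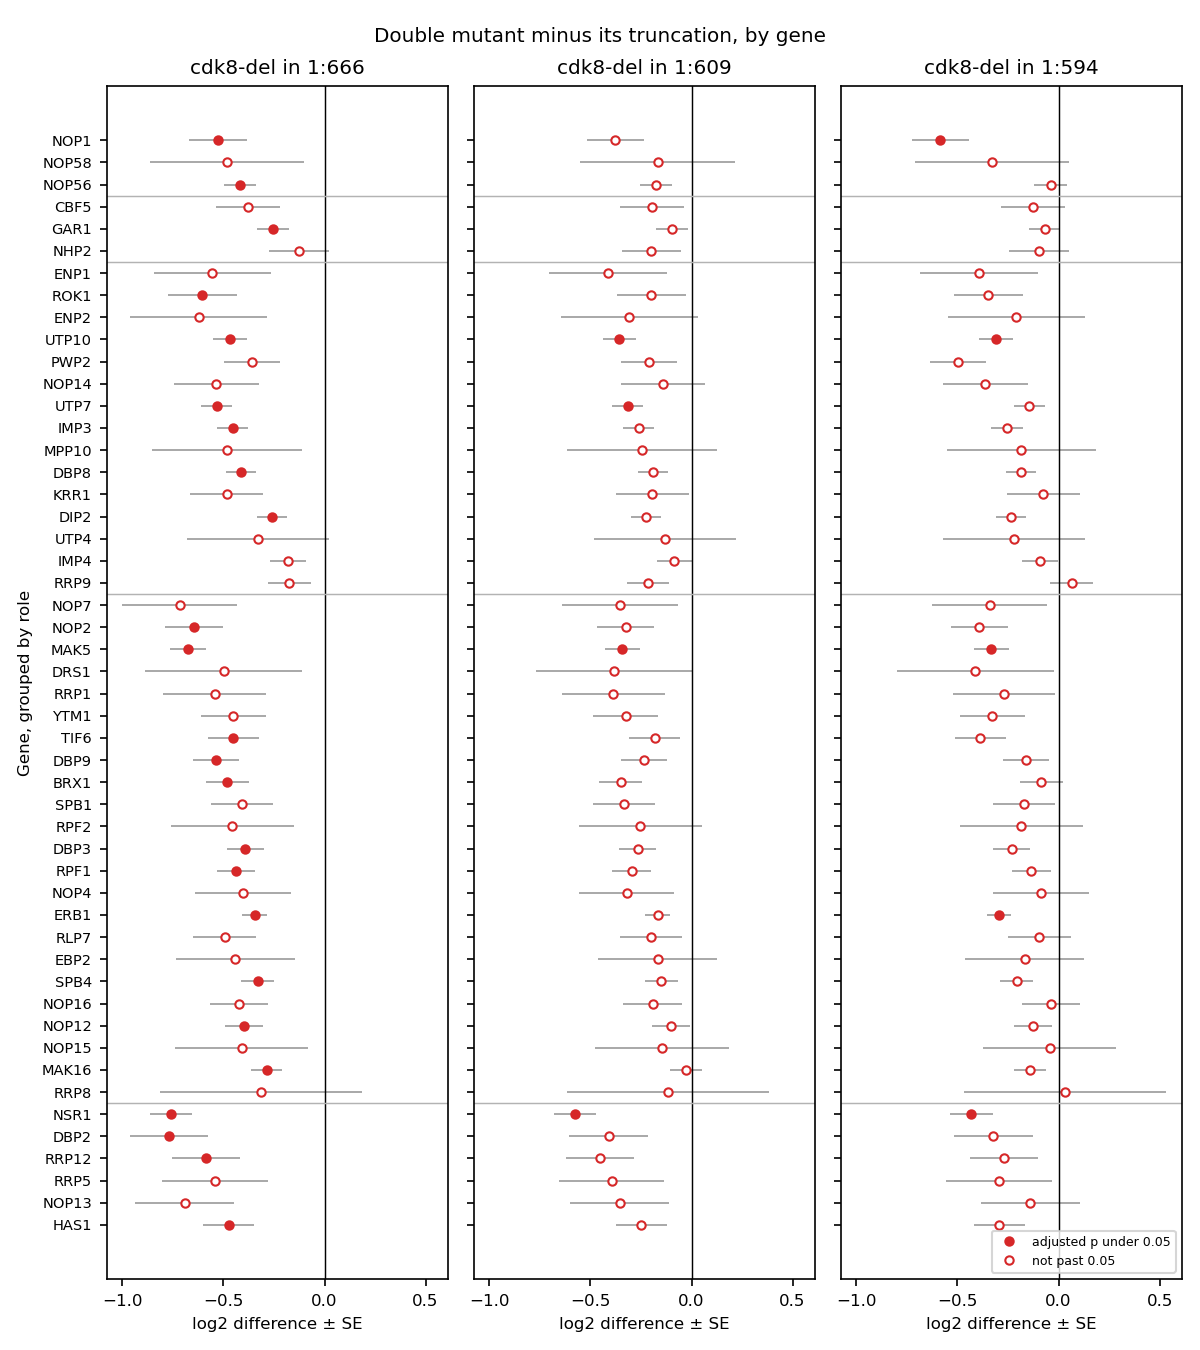
Log2 difference between each double mutant and its truncation (points, with SE bars) for the 50 genes in 3 backgrounds; filled points have a limma adjusted p under 0.05. Filled points number 24, 4 and 5, and points right of 0 occur only in 1:594, for RRP8 and RRP9; on the external control scale, where the typical gene moved by up to 0.42, the median in 1:609 turned to 0.18.

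Among the snoRNP core proteins, NOP1 had the lowest average cdk8-del difference. On arrays a and b it was 0.07 and 0.22 in 1:666 against -0.42 and -0.34 in its double mutant, -0.15 and 0.02 in 1:609 against -0.58 and -0.30, and -0.01 and 0.25 in 1:594 against -0.58 and -0.35. No array of a double mutant overlapped with its truncation. The average difference was -0.50 ± 0.08 (limma adjusted p 0.00112). NOP56 fell less, by -0.21 ± 0.05 (adjusted p 0.00669). NOP58, whose letters differed by 0.60 on average, was -0.33 ± 0.22 (adjusted p 0.325), and with the letter as a block -0.33 ± 0.05 (adjusted p 9.99e-05). The H/ACA proteins CBF5, GAR1 and NHP2, at -0.23, -0.14 and -0.14, stood nearer to 0 than the median of the 50, and of these GAR1 fell (adjusted p 0.0396).

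In the small-subunit group 7 of 15 genes fell on average, against 12.2% of all probes. UTP10, with NSR1 and MAK5, was 1 of 3 genes that fell in all 3 backgrounds. Its values on arrays a and b were 0.15 and 0.18 in 1:666 against -0.28 and -0.33 in the double mutant, -0.02 and -0.03 in 1:609 against -0.43 and -0.34, and -0.05 and -0.05 in 1:594 against -0.38 and -0.34. Both letters gave nearly the same value, and no double mutant array overlapped with its truncation. The average was -0.38 ± 0.05 (limma adjusted p 0.000176). PWP2, a component of the UTP-B subcomplex, was -0.36 ± 0.08, UTP7 was -0.33 ± 0.04 and IMP3 was -0.32 ± 0.04. RRP9 and IMP4, at -0.11 and -0.12, were closest to 0 and did not pass.

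In the large-subunit group 13 of 23 fell on average, against the same 12.2%. The helicase MAK5 was 0.29 and 0.23 on arrays a and b of 1:666 against -0.43 and -0.40 in its double mutant, 0.05 and 0.06 in 1:609 against -0.36 and -0.22, and 0.05 and 0.18 in 1:594 against -0.28 and -0.16. It fell in all 3 backgrounds without overlap of arrays, and its average was -0.45 ± 0.05 (limma adjusted p 7.76e-05). NOP2, a methyltransferase of the 25S rRNA, fell by -0.45 ± 0.08 on average. The 3 PeBoW proteins read -0.47 in NOP7, -0.37 in YTM1 and -0.27 in ERB1. YTM1 and ERB1 fell, and NOP7, with a wide gap between letters, did not pass. At the other end MAK16 read -0.15 ± 0.05 (adjusted p 0.030) and RRP8, a base methyltransferase, -0.13.

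Of the 6 genes that act on both subunits or on pre-rRNA processing in general 4 fell on average (against 12.2%): NSR1, DBP2, RRP12 and HAS1. Their group median of -0.42 was lower than -0.32 in the small-subunit group and -0.30 in the large-subunit group, and these differences between groups were not tested. RRP5, which is required for both subunits, was -0.41 ± 0.15 (limma adjusted p 0.0697). Among the 9 helicases, 8 fell on average (against 12.2%), with a median of -0.34.

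The sizes of the differences were compared between the 3 backgrounds. In 48 of 50 genes the cdk8-del difference was lower in 1:666 than in 1:609, and in 48 it was lower than in 1:594. Both counts rest on the same arrays of 1:666 and 1:666 cdk8-del, and shares of all probes are not given for them. The median gap was 0.20 against 1:609 and 0.25 against 1:594. With scaling on the external control spots the median gap was 0.27 against 1:609, but 0.00204 against 1:594 (24 of 50 genes below 0). As a test of each gene's gap, none passed in limma (against 0.157% and 0.344% of all probes at an adjusted p under 0.05), and 3 and 7 genes had an unadjusted p under 0.05. Between 1:594 and 1:609 none passed either (against 0.125%), with a median gap of 0.04 that turned to -0.28 on the external control scale. In the fit with the letter as a block NOP14 passed against 1:609 and NOP56, UTP7, KRR1, NOP16, DBP9 and BRX1 passed against 1:594. The cdk8-del differences of the 3 backgrounds share no arrays. Over the 50 genes they correlated with r = 0.69 between 1:666 and 1:609, 0.51 between 1:666 and 1:594, and 0.48 between 1:609 and 1:594. Over all 6388 probes r was 0.84, 0.82 and 0.75. All these values come from the same reference pool and array design.

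Other genes of ribosome production gave a graded picture. A list of 99 other ribosome biogenesis genes had a median cdk8-del difference of -0.24 on average over the backgrounds. Of these, 96 were below 0 and 57 fell in limma, against 12.2% of all probes, a share that holds for the next lists too. RNA polymerase I genes had a median of -0.14 (15 genes, 6 fell), and RNA polymerase III genes -0.13 (21 genes, 8 fell). The 128 cytosolic ribosomal protein genes had a median of -0.04, with 93 below 0 and 8 that fell, a smaller share than that of all probes. Next to these, the median of the 50 factors was -0.31, and that of all probes was -0.00497. RPL22B, a ribosomal protein gene, was lower against 1:713 by -0.93 in 1:609 and -0.89 in 1:594 and was the only gene of its list called in those comparisons.

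**Figure D4:**
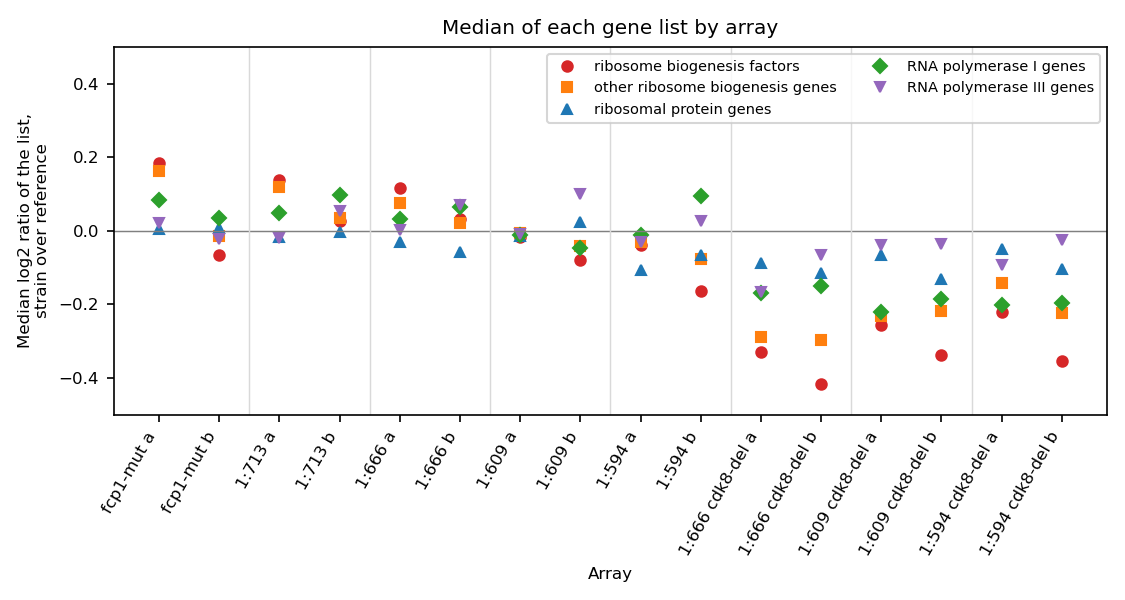
Median log2 ratio of strain over reference for 5 gene lists on each of the 16 arrays. On the 6 cdk8-del arrays the medians of the 50 factors lie between -0.42 and -0.22, those of the 99 other ribosome biogenesis genes between -0.30 and -0.14, and those of the ribosomal protein genes between -0.13 and -0.05.

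General stress genes moved the opposite way with cdk8-del. Of 40 such genes, 29 were called higher on average (against 2.71% of all probes called in either direction). In 1:666 it was 35 (against 3.99%), in 1:609 22 (against 1.63%) and in 1:594 23 (against 2.14%). The list medians were 1.31, 1.84, 1.08 and 1.05 in this order. By array, the median of this list was 0.91 to 1.61 in the double mutants and -0.24 to 0.16 in the other strains, so that the background with the largest rise, 1:666, was also the background with the lowest median of the 50 factors. Whether the 2 movements are connected was not tested.

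Among 15 regulators of ribosomal genes, 4 fell (against 10.3% of all probes) and none rose (against 7.17%) in 1:609 against 1:713. In 1:594, 3 fell (against 6.61%) and 2 rose (against 5.73%). With cdk8-del on average 4 fell (against 12.2%) and 1 rose. SFP1, an activator of ribosome biogenesis genes, was -0.42 and -0.56 on arrays a and b of 1:609 and -0.25 and -0.18 on those of 1:594, against 0.28 and 0.26 in 1:713. The difference from 1:713 was -0.76 ± 0.07 in 1:609 (limma adjusted p 5.43e-05) and -0.49 ± 0.07 in 1:594 (adjusted p 0.00125). TOD6, a repressor of the regulon, fell too, by -0.66 ± 0.10 and -0.42 ± 0.10 (adjusted p 0.00171 and 0.0226). STB3, which binds a promoter element of these genes, was 0.21 ± 0.06 higher in 1:594 (adjusted p 0.0399). With cdk8-del on average SFP1 was -0.12 ± 0.04 (limma adjusted p 0.0385), with -0.07 in 1:666, 0.00135 in 1:609 and -0.30 in 1:594, where alone it passed (adjusted p 0.0196). On average TOD6 was -0.24 ± 0.06 (adjusted p 0.0131) and the kinase gene SCH9 was -0.33 ± 0.08 (adjusted p 0.0128). No regulator of the list was called.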

How the data were processed

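Spotted 2-colour arrays of 8 strains, 2 arrays each, were read from scanner files. Per the file headers, the authors deposited unnormalised spot means and local background medians as intensity values of both channels. They also deposited log2 ratios scaled to total mRNA (per the series description), which served as an alternative; their background correction and scaling are not given in the sources used here. Array number limits the precision.

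The normexp method (offset 50) corrected background. Lowess (span 0.4, 3 iterations) scaled the log2 ratios over 12776 gene spots, after which they were turned to strain over reference by dye and averaged over 2 spots a probe. With limma 3.58.1 (R 4.3.3), each strain's mean was estimated from 16 arrays in 1 model (residual degrees of freedom 8, prior 2.57), with 18 contrasts, two-sided. Symbols came from the platform annotation, updated through RefSeq (5324 of 5326 matched). Figures used Python 3.11.15, matplotlib 3.10.9 and pandas 2.3.3. In data simulated for 1:594 against 1:713 at these spreads over 6388 probes, 0 of 6188 unchanged probes were called, and 40 of 50 with a log2 change of 1 and 0 of 50 with 0.5 were called.

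Arrays of the same letter, which is also the dye orientation, deviated together: all 16 arrays correlated best with their own letter, and the lowest same-letter correlation of deviations was 0.60. The letter therefore pairs the arrays, and fits with it as a block are given beside counts that it moved.

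The members and gene lists were chosen with earlier results of these data known. Genes given with array values were taken mainly from several groups. These were the 3 highest and 3 lowest of the 50 in each main comparison, called ones, and a fixed set of core factors. Not every gene of these groups has its array values in the text. A few others were chosen after their values were seen. Alternatives were other background corrections, median centring, print-tip lowess, external control scaling, deposited ratios, a filter on dim probes, the block, the threshold without fold limit, and leaving out each array. No sequences are shown.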

Additional observations from a re-analysis of the deposited data

How the results depend on the processing

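The 2 called changes, both in NSR1, did not reverse in direction in any alternative. Medians of the 50 genes did turn in some. With scaling on the external control spots the median cdk8-del difference in 1:609 was 0.18, with 2 of 50 genes below 0. Where values below differ from the reported ones, the cause was not tested. Among values of single genes, 18512 stayed on their side of the threshold in use. A further 236 passed only in an alternative, most of them where the alternative was the looser threshold without fold limit. The other 2, both NSR1, no longer passed. Genes called, 1 for each of 1:609 cdk8-del and 1:594 cdk8-del and otherwise 0, moved as follows. With plain background subtraction 2 were called for cdk8-del in 1:666. With median centring the counts were 0 in 1:609 cdk8-del, 0 in 1:594 cdk8-del and 1 for cdk8-del in 1:666. With print-tip lowess they were 1 in 1:666 cdk8-del, 2 in 1:609 cdk8-del and 1 for cdk8-del in 1:666. With the deposited log2 ratios these 3 counts were 1, 2 and 2. With scaling on the external control spots they were 8 in fcp1-mut, 14 in 1:609, 11 in 1:594, 2, 2 and 13 in the double mutants of 1:666, 1:609 and 1:594, all lower. Over all probes, 1700 were called on that scale in fcp1-mut, 1802 in 1:609, 890 in 1:594, and 248, 327 and 617 in these double mutants. Leaving out single arrays gave 0 to 1 for cdk8-del in 1:666, with 1 without either fcp1-mut array, without array a of 1:666 and without array a of 1:666 cdk8-del.

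With no fold limit, at an adjusted p under 0.05, the counts against the reference were 1 in fcp1-mut, 4 in 1:666, 9 in 1:609, 11 in 1:594, 30, 22 and 24 in the double mutants of 1:666, 1:609 and 1:594. They were 7 in 1:609 and 7 in 1:594 against 1:713, and 24, 4, 5 and 27 for cdk8-del in 1:666, 1:609, 1:594 and on average. This threshold was given its own alternatives after the data were seen. Without background correction the count for cdk8-del in 1:594 was 3, and with print-tip lowess 8. With median centring the counts against the reference were 0 in fcp1-mut, 2 in 1:666, 3 in 1:609, 2 in 1:594, 19, 8 and 7 in the double mutants of 1:666, 1:609 and 1:594. Against 1:713 they were 0 in 1:609 and 1 in 1:594, a gene that rose, and for cdk8-del 8 in 1:666, 0 in 1:609 and 0 in 1:594. Scaling on the external control spots put the median of all probes below the reference in every strain. The counts were then 49 in fcp1-mut, 30 in 1:713, 36 in 1:666, 46 in 1:609, 43 in 1:594, 35 and 49 in the double mutants of 1:609 and 1:594. On that scale they were 4 in 1:609 and 0 in 1:594 against 1:713, and 0, 0, 0 and 1 for cdk8-del in 1:666, 1:609, 1:594 and on average. With the deposited log2 ratios they were 9 in fcp1-mut, 7 in 1:713, 21 in 1:666, 31 in 1:609, 27 in 1:594, 47, 41 and 40 in the double mutants of 1:666, 1:609 and 1:594. On these ratios they were 3, 22 and 20 in 1:666, 1:609 and 1:594 against 1:713, 46, 31, 28 and 48 for cdk8-del, and 5 for its difference between 1:594 and 1:666.

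With the replicate letter as a block, which pairs arrays of one dye orientation, the counts at this threshold were 10 in fcp1-mut, 11 in 1:713, 18 in 1:666, 26 in 1:609, 24 in 1:594, 47, 44 and 46 in the double mutants of 1:666, 1:609 and 1:594. They were 5, 22 and 24 against 1:713, 48, 31, 25 and 49 for cdk8-del, and 1 and 6 for its differences of 1:609 and 1:594 from 1:666. At the call threshold the block gave 1 for cdk8-del in 1:666 and changed no other count of called genes.

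Leaving out single arrays moved the counts at an adjusted p under 0.05 over these ranges: 0 to 1 in fcp1-mut, 0 to 1 in 1:713, 0 to 5 in 1:666, 5 to 10 in 1:609 and 3 to 11 in 1:594. In the double mutants they were 13 to 33 in 1:666, 9 to 23 in 1:609 and 11 to 24 in 1:594. Against 1:713 they were 3 to 7 in 1:609 and 0 to 7 in 1:594, and for cdk8-del 11 to 24 in 1:666, 0 to 4 in 1:609, 0 to 6 in 1:594 and 23 to 33 on average. Leaving out 1 array unbalances the letters: without array a of fcp1-mut the median of the 50 genes turned from 0.06 to -0.07 there.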

Other observations

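The table of neighbouring genes held a pair of adjacent members, RPF1 (YHR088W) and GAR1 (YHR089C) on chromosome VIII. RPF1, a large-subunit factor, rose against the reference in 1:609 (0.26 ± 0.07, limma adjusted p 0.013), while GAR1 fell (-0.35 ± 0.05, adjusted p 0.000663). In 1:594 the values were 0.16 and -0.31.

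NOP4 (YPL043W), an RNA-binding factor of large-subunit assembly, lies next to the deleted SSN3 (YPL042C) on chromosome XVI. Its cdk8-del difference was -0.40 ± 0.24 in 1:666, -0.32 ± 0.24 in 1:609 and -0.09 ± 0.24 in 1:594, and averaged -0.27 ± 0.14 (limma adjusted p 0.182). This average lay near the median of the 50 genes.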
